A study of Mus musculus with 14 samples.

Results

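The 10 genes described here are members of the MYC-MAX network, Myc, Mycn, Mycl, Max, Mga, Mnt, Mxd1, Mxd4, Mxi1 and Mlx, and they were chosen by name from the 21938 protein-coding genes of the annotation. H3K4me1 was mapped by ChIP-seq in NG3 cells, a single clone of immortalized mouse embryo fibroblasts (iMEF) in which exon 4 of the endogenous Ash2l is deleted and a lentiviral FKBP-HA2-ASH2L fusion of human ASH2L takes their place. All libraries, the control included, carry this replacement. Control cells received no dTAG, and the other cells were exposed to dTAG-13, a PROTAC that directs FKBP-tagged proteins to degradation, for 30 min, 2 h, 4 h, 8 h or 16 h. The 6 conditions with 2 libraries each make 12 H3K4me1 libraries, beside 2 inputs. The deposited data are a single set of 160144 H3K4me1 sites over all these samples, of which 145 had their centre within the 10 genes or 50 kb on either side, and 448 lay within 2 Mb of the Myc transcription start site (TSS). The set gives positions only, so no value can be assigned to a library, a replicate or a time point, and every result is a description of where sites lie.

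MYC proteins are transcription factors of the bHLHZip class that bind DNA as heterodimers with MAX and activate genes of growth, ribosome production and metabolism. MXD proteins, MNT and MGA compete for MAX and recruit corepressors, and MLX joins a part of this network to factors that respond to nutrients. H3K4me1 is found on active and primed enhancers and on the flanks of active promoters, where the nucleosomes next to the TSS carry H3K4me3 instead. ASH2L is a shared subunit of the KMT2 complexes that write these marks.

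All 10 members had H3K4me1 at their promoter, that is a site that overlapped the 1 kb on either side of the most upstream annotated TSS. This was so for 63.9% of all protein-coding promoters. Each member also had a CpG island within 1 kb of this TSS, against 53.9% of all protein-coding genes. Among the protein-coding promoters with such an island, 93.0% overlapped a site, so that 10 of 10 is close to what these promoters show in general. A site covered the TSS itself in 6 members, Myc, Mycn, Mycl, Mga, Mnt and Mlx, against 39.5% of all protein-coding genes and 56.6% of those with an island. In the other 4 members, Max, Mxd1, Mxd4 and Mxi1, the TSS lay in a site-free stretch with a site within 1 kb on both sides. Such a stretch was present at 13.7% of all protein-coding TSSs and at 23.6% of those with an island. The 6 covered TSSs are near the share of promoters with an island, and the 4 free ones are above it in a set where each gene counts for 10%. The paper reports that H3K4me1 rose at many sites after ASH2L loss, nearly all of them at promoters. Here and in the counts below, the pooled set cannot tell promoter sites present in control cells from those called only after dTAG-13.

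**Figure D1:**
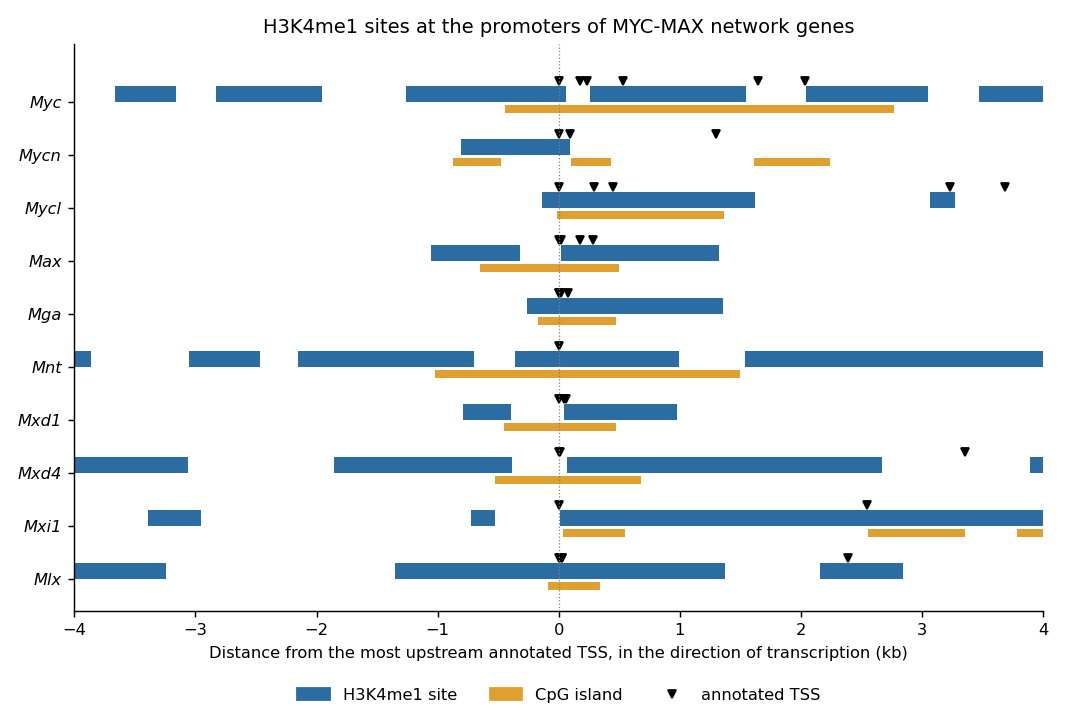
H3K4me1 sites (blue), CpG islands (orange) and annotated TSSs (triangles) within 4 kb of the most upstream TSS of the 10 members, on a linear scale in kb in the direction of transcription. Sites cross the dotted line of the TSS in 6 members, and leave it free between 2 sites in Max, Mxd1, Mxd4 and Mxi1.

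Myc, the founding member, lies at chr15:61985391-61990374 on the plus strand (mm10). Positions below are in bases from the most upstream TSS, which is 0, and negative values are upstream. A site of 1328 bp reached from -1265 to 62 and so covered the TSS, and the next began at 259 and ended at 1542. Further sites lay from 2045 to 3051 and from 3472 to 4706, within the gene, and from -2827 to -1953 and -3668 to -3161 upstream of it. Myc is transcribed from several promoters that lie close together, and of its 6 annotated TSSs only 2 were covered. The stretches between sites, of 196 bp at 63 to 258 and of 502 bp at 1543 to 2044, held 2 annotated TSSs each. The Myc CpG island was 3210 bp long, from -442 to 2767, and sites covered 78.3% of it.

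Mycn, which is best known from neural progenitors and neuroblastoma, lies at chr12:12936093-12941914 on the minus strand. Its only site was 904 bp long and reached from -811 to 92. The gene has 4 CpG islands, and their coverage was uneven. The site covered 83.8% of the island at -875 to -480, and none of the islands at 99 to 433, 1609 to 2239 and 4527 to 4922. Mycl, the third MYC paralogue, lies at chr4:122995652-123002485 on the plus strand. A site of 1754 bp from -136 to 1617 covered its TSS and the whole of its 1372 bp island.

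Max encodes the common partner of the network and lies at chr12:76937269-76962201 on the minus strand. Its TSS lay in a site-free stretch of 339 bp, from -317 to 21, between a site of 740 bp upstream and one of 1301 bp downstream. Mxd1, at chr6:86647042-86669161 on the minus strand, encodes a MAX partner of differentiating cells. The site-free stretch there was 437 bp long, from -397 to 39, with sites of 397 bp upstream and 939 bp downstream. Mxd4, at chr5:34173883-34187720 on the minus strand, encodes a related repressor, and was the only member without a covered TSS at any of its 4 annotated TSSs. Its site-free stretch of 451 bp, from -383 to 67, was bordered by sites of 1470 bp and 2603 bp. Mxi1, at chr19:53310518-53375810 on the plus strand, encodes a further MXD protein with several promoters. Its stretch was 536 bp long, from -527 to 8, between the narrowest site width in the set, 200 bp, upstream and a site of 5314 bp downstream. In these 4 genes the downstream site began between 9 and 68 bp from the TSS, and the upstream site ended at a position between -528 and -318. Over the 3009 protein-coding genes with such a stretch, its median length was 423 bp with quartiles of 339 and 572 bp, and the 4 members lay within this range. The edges are those of broad peaks from sheared fragments, so that small offsets do not separate one gene from another.

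The sequences at the upstream edge of these 4 stretches show where the called site ended before the TSS, which is not a base at which the mark is known to stop. Each line runs 5' to 3' in the direction of transcription (GRCm38.p6, the same build as mm10), with the last 60 bases of the deposited site in capitals and the next 60 bases, which belong to no site, in lower case. They lie at chr12:76962459-76962578 for Max, chr6:86669499-86669618 for Mxd1 and chr5:34188044-34188163 for Mxd4, all on the minus strand, and at chr19:53309931-53310050 on the plus strand for Mxi1.
Max: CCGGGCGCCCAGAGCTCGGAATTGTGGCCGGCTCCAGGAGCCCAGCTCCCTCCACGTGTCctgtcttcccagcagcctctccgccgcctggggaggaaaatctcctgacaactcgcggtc
Mxd1: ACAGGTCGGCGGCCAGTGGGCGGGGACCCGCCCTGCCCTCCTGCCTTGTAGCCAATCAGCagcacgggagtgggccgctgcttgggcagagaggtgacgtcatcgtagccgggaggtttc
Mxd4: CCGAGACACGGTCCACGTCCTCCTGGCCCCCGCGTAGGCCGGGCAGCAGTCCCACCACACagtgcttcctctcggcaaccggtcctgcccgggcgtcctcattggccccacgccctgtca
Mxi1: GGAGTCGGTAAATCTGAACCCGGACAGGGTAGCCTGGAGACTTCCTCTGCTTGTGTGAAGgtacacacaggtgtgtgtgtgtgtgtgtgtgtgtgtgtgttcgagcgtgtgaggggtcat
These 120 bases held 9 CpG dinucleotides in Max and in Mxd1, 11 in Mxd4 and 4 in Mxi1, where the part outside the site is largely a run of alternating G and T. No annotated exon overlapped any of them.

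Mga, Mnt and Mlx encode the remaining MAX and MLX partners. Mga, a T-box and bHLHZip protein that organizes the polycomb complex PRC1.6, lies at chr2:119897228-119969581 on the plus strand. A site of 1622 bp from -265 to 1356 covered its TSS and the whole of its 643 bp island. Mnt, a widely expressed repressor, lies at chr11:74830920-74845725 on the plus strand. Its TSS was covered by a site of 1351 bp from -361 to 989, and further sites of 1454 bp upstream and 2796 bp downstream followed after 342 and 546 site-free bases. The 2514 bp Mnt island was covered over 66.4%. Mlx, the partner of the nutrient-sensing factors MLXIP and MLXIPL, lies at chr11:101087277-101092207 on the plus strand. A site of 2725 bp from -1353 to 1371 took up all 2001 bases around the Mlx TSS, which no other member showed. In Mycn, at the other end, 904 of these 2001 bases were covered. The remaining 8 members lay between 1137 bases in Mycl and 1805 in Myc.

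The members have 58 annotated TSSs in all. Of these, 46 had a site within 1 kb, 27 were covered by a site and 12 had none within 1 kb. Mga held 8 of the 12, out of its 12 annotated TSSs. All 8 were TSSs of retained introns or processed transcripts, and the TSSs of its coding transcripts were covered. Mycn, Max, Mxd1 and Mxd4 had 1 each without a site, and the other 5 members had none. The TSSs without a site in Mycn and Mxd1 belonged to coding transcripts, and those in Max and Mxd4 did not. All 5 TSSs of Mlx were covered.

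The sequence CACGTG, the canonical E-box to which MAX heterodimers bind, was searched in the 1 kb on either side of the TSS. It is a palindrome, so that both strands read alike. It occurred 6 times in 4 members, Max, Mnt, Mxd4 and Mlx, and 27.5% of the 21938 protein-coding promoters of the same length held it at least once. Each is shown here with 10 bases on either side, 5' to 3' in the direction of transcription (GRCm38.p6) and with the E-box in capitals, to set it beside the sites.
Max, -50 to -45: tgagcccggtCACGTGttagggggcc
Max, -325 to -320: cagctccctcCACGTGtcctgtcttc
Mnt, -119 to -114: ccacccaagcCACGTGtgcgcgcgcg
Mnt, 476 to 481: caacagagagCACGTGgtgagcggcc
Mxd4, -209 to -204: gctgggccacCACGTGctgttgctaa
Mlx, -27 to -22: tgggttggatCACGTGactgagcctc
They lie at chr12:76962236-76962261 and chr12:76962511-76962536 in Max, chr11:74830791-74830816 and chr11:74831386-74831411 in Mnt, chr5:34187914-34187939 in Mxd4 and chr11:101087240-101087265 in Mlx. The copies of Mnt and Mlx lay inside H3K4me1 sites. The copy of Mxd4 and that of Max nearest to the TSS lay in the site-free stretch, and the other copy of Max lay in the last bases of the upstream site, where it can be read in the capitals of the Max sequence above. A match is a match of letters only, and binding was not measured. In the RefSeq promoter table, which runs from 250 bases before to 50 after the TSS, 9 members were found with 11 promoters, Myc had no entry, and 4 of the 11 held the E-box, against 7.15% of all 32851 promoters. The E-box contains a CpG and every member has a CpG island, while the 27.5% and the 7.15% are over promoters with and without one. The share among promoters with an island was not counted.

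The promoter of Mycn is shown because its site stood alone. In RefSeq (GRCm38.p6), the 172 bases before the annotated exon, chr12:12941915-12942086 on the minus strand, all lay inside the site. Here the letters are lower case throughout, since no E-box falls in them.
Mycn: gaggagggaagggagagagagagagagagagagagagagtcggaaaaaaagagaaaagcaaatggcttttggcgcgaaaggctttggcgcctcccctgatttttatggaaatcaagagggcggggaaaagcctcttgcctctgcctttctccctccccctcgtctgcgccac
This stretch held 7 CpG dinucleotides.

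Beyond the promoters, the members differed widely in the number of sites over the gene and the 50 kb on either side. Mxi1 had 34 sites, Myc 21, Mlx 18, Mnt 17, Max and Mxd4 12 each, Mycl 11, Mxd1 10, Mga 9 and Mycn 1. The median of the members was 12 sites, and that of the same windows over all protein-coding genes was 11, with quartiles of 4 and 17. By the share of the window that sites covered, Mlx was highest with 28.8%, at the 96.1 percentile of all protein-coding genes. Mxi1 with 20.9%, Mnt with 19.9% and Myc with 18.8% followed, at the 87.7, 86.2 and 84.1 percentiles. Mycl had 13.7% of its window covered, Mxd4 8.90%, Max 8.25%, Mxd1 7.73% and Mga 5.51%. Mycn was lowest with 0.854%, at the 18.0 percentile. The members' median of 11.3% compares with 7.86% over all protein-coding genes, whose quartiles were 2.31% and 14.8%, and 7 of the 10 members lay above that median.

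**Figure D2:**
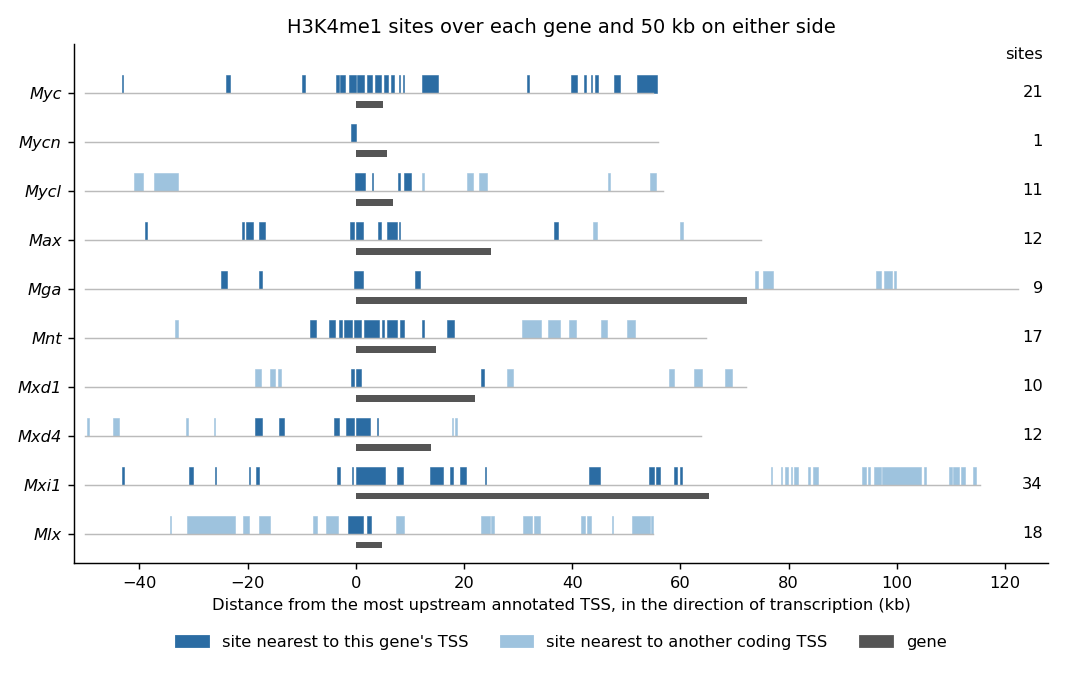
H3K4me1 sites over each member and 50 kb on either side, drawn to scale in kb from the most upstream TSS in the direction of transcription, with the gene as a grey bar and the number of sites at the right. Dark sites have a TSS of the member as the nearest TSS of a protein-coding gene, over all its transcripts, as all 21 of Myc do. Light sites have that of another gene, as 16 of the 18 of Mlx do.

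**Figure D3:**
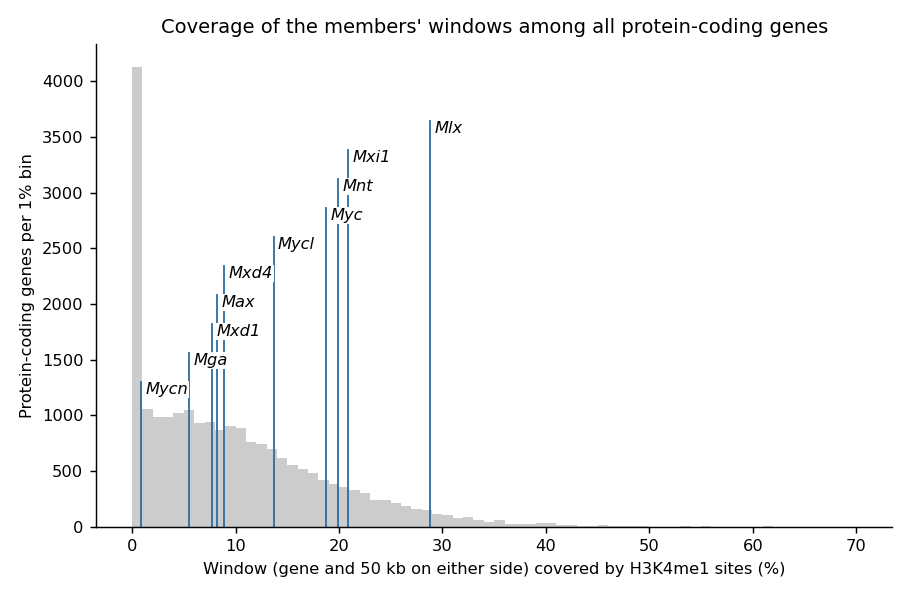
Share of the window (gene and 50 kb on either side) covered by H3K4me1 sites, in percent, as a histogram over all 21938 protein-coding genes with a vertical line for each member. The height of a line has no meaning and only separates the names. Mycn stands at 0.854% and Mlx at 28.8%.

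A high count did not always belong to the member. For 80 of the 145 sites the nearest TSS of any protein-coding gene was one of the member itself, and for 65 it was that of another gene. All annotated transcripts of these genes were counted, coding or not. All 21 sites of the Myc window were nearest to Myc, whose window holds no other protein-coding gene. Non-coding genes are left out of this rule, and the Myc site at 51919 to 55571 covered the TSS of Pvt1, a non-coding RNA gene. In the Mlx window, with 7 further protein-coding genes, 2 of 18 sites were nearest to Mlx, and the widest site, of 8824 bp, lay upstream nearest to Naglu. In the Mxd1 window 3 of 10 sites were nearest to Mxd1. The 34 sites of the Mxi1 window were divided into 18 nearest to Mxi1 and 16 nearest to Smndc1, and the widest of them, 7131 bp, was among the latter at 97315 to 104445. Mxi1 itself held 11 sites in its body. Mnt held 6 sites in its body, which covered 47.8% of the gene. Sites covered 72.0% of the 4984 bp of Myc, more than of any other member, and 3.01% of Mga.

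By position, 45 of the 145 sites, or 31.0% (95% Wilson interval 24.1 to 39.0%), had their centre within 1 kb of an annotated TSS, beside 15.5% of all 160108 sites on chromosomes. Introns held 28.3% of the members' sites beside 47.6% of all, exons 4.14% beside 3.59%, and the space between genes 36.6% beside 33.3%. The median width was 865 bp with quartiles of 443 and 1301 bp, and that of all sites 603 bp with quartiles of 348 and 1134 bp. Windows built around genes hold more TSSs than the genome at large, and how much of these differences comes with that choice was not tested. An E-box was present in 19 of the 145 sites (13.1%) and in 13.3% of all sites.

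Mycn stood apart in how far its site was from any other. The next site upstream lay 203 kb away and the next downstream 679 kb away, so that a span of 883 kb held this site alone. The span contains 15 other annotated genes, of which Fam49a, named here after its value was seen, is the only protein-coding one, and it holds no unknown base in the assembly. Windows with no more than 1 site were common among all protein-coding genes, at 16.6%, but made up 0.992% of the 14009 genes with a site at the promoter. For the other 9 members the site-free distance next to the promoter sites was at most 32.7 kb upstream, in Mycl, and at most 22.3 kb downstream, in Mxd1. Within 2 Mb of the TSS, Mycn had 65 sites with 1.20% of the interval covered, at the 3.39 percentile of 20314 autosomal protein-coding genes by number of sites. Few other protein-coding genes lie in that interval, and their number is given below beside that of Myc.

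Myc, by contrast, had 448 sites within 2 Mb, at the 87.6 percentile, and the sites covered 9.11% of this interval, at the 58.7 percentile and close to the median of 8.08% over the 20314 genes. The counts of the other 8 members ran from 209 in Mycl to 516 in Mlx. Mga, with 486, and Mlx had more sites than Myc, with 89 and 176 other protein-coding TSSs in the interval. Myc had 7 and Mycn 10, while the median over the 20314 genes was 54. Among the 274 genes with no more such neighbours than Myc, which often share an interval with each other, the median was 111 sites. Myc lay among them at the 98.9 percentile by number and at the 99.6 percentile by the share covered. The lower quartiles of these 274 genes were 69.25 sites and 0.945% covered. Mycn, with more neighbours than they have, had 65 sites and 1.20%. The intervals of all members were added after the values of Myc and Mycn had been seen.

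The surroundings of Myc are known as a gene desert that carries distant enhancers active in different tissues and tumours. Of the 448 sites, 182 lay upstream and 266 downstream. By their centres, introns held 244 of them, 177 lay between genes, 20 within 1 kb of any annotated TSS and 7 in exons. The centres of 3, all at Myc itself, were within 1 kb of the TSS of a protein-coding transcript. A site with its centre farther off can still reach such a TSS, as a site of 3274 bp in Fam84b did. The sites were narrow, with a median width of 498 bp. An E-box was present in 33 (7.37%), a lower share than among all sites, also per length with 0.104 E-boxes per kb of site against 0.172. The E-box contains a CpG, and 20 of the 448 sites had their centre within 1 kb of a TSS, beside 15.5% of all sites. Whether the lower share comes with this position was not tested.

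**Figure D4:**
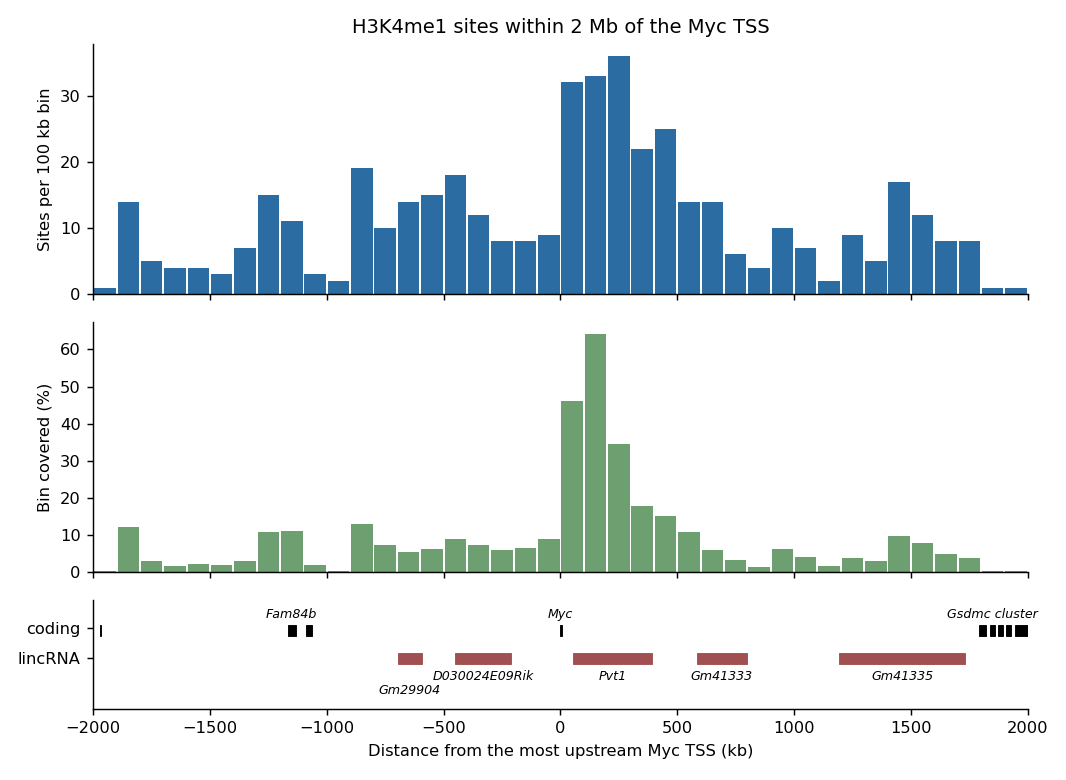
Number of H3K4me1 sites (top) and share of bases covered in percent (middle) in bins of 100 kb within 2 Mb of the Myc TSS, with protein-coding genes and 5 long non-coding RNAs drawn to scale below. No bin is empty, and the tallest bars stand downstream of Myc, over Pvt1.

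In bins of 100 kb, the interval held a median of 9 sites and none of its 40 bins was empty, while 15.6% of the bins of chromosome 15 and 23.8% of those of all autosomes had no site. The density was uneven around the gene. Within 100 kb there were 9 sites upstream and 32 downstream, and these covered 8.86% and 46.1% of the bases. From 100 to 500 kb the density was 11.5 sites per 100 kb upstream and 29 downstream. From 500 to 1000 kb it was 12 upstream and 9.6 downstream, and from 1000 to 2000 kb it was 6.7 and 7. In these bands the higher density downstream did not extend beyond 500 kb. The bin from 100 to 200 kb downstream had the highest coverage, 64.1%, and no upstream bin exceeded 13.1%.

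Pvt1, a long non-coding RNA gene whose locus neighbours Myc and is often amplified with it in tumours, lies on this side. It begins 52.6 kb downstream of the Myc TSS and ends at 393 kb. The gene held 108 sites that covered 44.0% of its 340 kb. By number of sites Pvt1 ranked 14 of 55413 annotated genes and 1 of 5854 lincRNA genes, and by sites per 100 kb it ranked 22 of 2888 genes of at least 100 kb. The 5 widest sites of the interval all lay in Pvt1. The widest, of 12862 bp at chr15:62111226-62124087, was 126 to 139 kb from the Myc TSS and lay in an intron. The others were 7503, 7132, 7063 and 5773 bp wide. A site of 3653 bp covered the Pvt1 TSS and its 267 bp CpG island, which with that of Myc and another near Fam84b was 1 of 3 islands in the interval.

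Other genes near Myc differed in their marks. Of the further lincRNA genes named here after their values were seen, Gm41335 held 52 sites over 541 kb, D030024E09Rik 29 over 240 kb and Gm41333 23 over 215 kb. Among protein-coding genes, Fam84b held 7 sites and its most upstream TSS was covered. Fam49b crosses the end of the interval, and its 15 sites and its TSS all lay beyond it. No site lay in A1bg, 4933412E24Rik, Gsdmc2, Gsdmc3 or Gsdmc4, and Gsdmc held 1. The longest site-free stretch with both ends inside the interval was 91.9 kb upstream, from -975 to -883 kb, without a protein-coding gene. The longest downstream was 86.3 kb, from 1818 to 1905 kb, over genes of the Gsdmc cluster, which encode gasdermins of epithelia.

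Most genes of the lists of factors that act with the network had a site at their promoter. Of 56 genes in 6 lists, 53 had a site within 1 kb of the TSS and 49 an island there, 24 had a covered TSS and 17 a site-free TSS between 2 sites. These counts stand beside 63.9%, 39.5% and 13.7% of all protein-coding genes for a promoter site, a covered and a free TSS, and 93.0%, 56.6% and 23.6% of those with an island, so that the count of promoter sites is near what island promoters show in general. All 15 MYC targets had a promoter site, among them Ncl, Npm1 and Odc1, which encode nucleolar proteins and the enzyme at the start of polyamine synthesis. In 7 of these 15, the TSS was covered, and in 7 it was free between 2 sites. In Ldha, also a target, the site covered only 67 of the 2001 bases, and none lay within 500 bp of the TSS. All 9 partners of MGA in PRC1.6 and all 5 corepressors of MXD and MNT had a promoter site, with covered TSSs in 5 and 2. Among regulators of MYC turnover 6 of 7 had one. Skp2, which encodes an F-box protein that ubiquitinates MYC, was the exception, with no site in its gene or 50 kb on either side. Of 10 MYC cofactors 9 had a promoter site, Wdr5 with all 2001 bases covered, and Ash2l had none at its most upstream TSS. Of 10 related bHLHZip factors Mlxipl alone had none at its most upstream TSS, although its window held 14 sites. Counted over any annotated TSS, 55 of the 56 genes had a site within 1 kb, Mlxipl and Ash2l among them.

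The cell type was looked up at promoters of marker genes, which is not a measure of expression, and 63.9% of all protein-coding promoters and 93.0% of those with an island had a site. A promoter site was present in 9 of 10 fibroblast markers, with Col3a1 as the exception, in 0 of 5 blood and 0 of 3 pluripotency markers, in 3 of 4 endothelial and 2 of 4 neural markers. All 5 epithelial markers had one too, and 4 of these 5 had a CpG island there, as no blood or pluripotency marker did. Whether this bears on the members was not tested.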

How the data were processed

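H3K4me1 ChIP-seq reads of iMEF cells were trimmed by the authors, aligned to mm10 with BWA and filtered with samtools. Replicates were merged with Picard, and Macs was used for broad peaks. Whether the calls were made on the merged reads is not given in the sources used here. Versions and thresholds are not given there either. The deposited values are no measured quantity but positions, the start and end of each peak, pooled over the samples. They come without read counts, so the depth is unknown and no test between conditions could be made. Starts, counted from 0 in the table, were converted to count from 1.

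Sites on chromosomes (160108, with 36 on scaffolds left out) were compared with GENCODE M21 and the GRCm38.p6 sequence in Python 3.11.15 with numpy 2.4.6, pandas 2.3.3, scipy 1.17.1, numba 0.67.0 and matplotlib 3.10.9. The authors name a later GENCODE release, which was not used here. Promoters were 1 kb on either side of the most upstream TSS, an overlap was at least 1 bp, and sites were assigned to windows by their centre. A site counted within a gene body of the Myc interval where it overlapped the gene. CpG islands were called on repeat-masked sequence (17 per CpG, -1 per other base, over 200 bp, at least 50% GC, observed to expected CpG over 0.6), which gave 16196. Wilson intervals cover counting only. Interval counts equalled a direct count in 3000 of 3000 simulated checks, and 47 of 50 planted islands were found within 60 bp at both ends.

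Members, lists and rules for named genes were chosen with earlier results of these data known. Named are the members, the genes of the fixed lists, protein-coding genes and Pvt1 near Myc, and genes at printed sites. Alternatives concerned the promoter size, the set of TSSs, the flanks, the width of sites and their merging, the overlap, the island length, the bins and the part of a site searched for E-boxes.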

Additional observations from a re-analysis of the deposited data

How the results depend on the processing

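Of 31 alternatives to 11 results, 8 moved a count or median by more than 1.5 times or a share out of its 95% interval, and 23 did not. The number of members with a promoter site was 10 under all 7 alternatives. A window of 3 kb on either side, any annotated TSS and merging could not have lowered it. Merging sites less than 1 kb apart joined the sites on either side of the 4 free TSSs, so that 10 members instead of 6 had a covered TSS, and brought the sites of the windows from 145 to 95 and those near Myc from 448 to 296. Counted over any annotated TSS, 9 members had a covered TSS, and within 1 Mb of Myc there were 311 sites. Flanks of 20 kb and 100 kb gave 90 and 254 sites. A minimum width of 500 bp left 222 sites near Myc. With coding transcripts only, the share of sites near a TSS was 20.7% instead of 31.0%. The 15.5% of all sites was counted over any annotated TSS, so it is no comparison for the 20.7%. With 200 bp at the centre of each site, 4.83% (7 of 145) held an E-box instead of 13.1%, beside 3.19% instead of 13.3% of all sites. No paired analysis was possible because the deposited set holds no value per library, and for the same reason no replicate could be left out. Depth is unknown, so a promoter or stretch without a site had none that was called, and H3K4me1 there may lie below the unknown threshold.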
